A study of Mus musculus with 10 samples.

Results

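Double-positive (DP) thymocytes that lacked both E2A and HEB (DKO) were compared with DP thymocytes of control mice (WT) across all genes that could be measured. The series holds 10 Affymetrix arrays, each from the thymus of an individual mouse, and 6 of them, 3 DKO and 3 WT, make up the comparison. Every mouse was 8 weeks old and carried Cd4-cre, a transgene that expresses Cre recombinase from Cd4 regulatory sequences. WT mice were wild-type cd4-cre+, DKO mice were E2Aflox/flox HEBflox/flox cd4-cre+, and 4 further arrays came from mice with E2Aflox/flox alone (E2AKO, n = 2) or HEBflox/flox alone (HEBKO, n = 2). The controls thus carried Cre without the floxed alleles, and deletion began only once a cell had switched Cd4-cre on. Cells positive for CD4 and CD8 were sorted to over 98% purity, about 1000000 per sample, and 6 µg of total RNA was labelled per array. Of 19937 named genes, 13138 were bright enough to be tested.

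E2A (gene Tcf3) and HEB (gene Tcf12) are basic helix-loop-helix transcription factors, known as E proteins, that bind E boxes in DNA as homodimers or as heterodimers with each other. Id proteins block them, and signals from the T cell receptor raise Id3. In DP thymocytes, which rearrange the T cell receptor alpha locus and wait for selection, E proteins are known to drive genes of recombination and survival and to hold back genes of later stages.

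The targeted transcripts followed the labels. Tcf3 was 9.65, 9.85 and 9.63 in WT 1 to 3 and 9.29, 8.93 and 8.94 in DKO 1 to 3 (log2 intensity), and it fell by 0.66 ± 0.11 (log2 ± SE, limma, adjusted p = 0.00256). Tcf12 was 11.91, 11.74 and 11.86 in WT 1 to 3 and 10.68, 10.73 and 10.71 in DKO 1 to 3, and it fell by 1.13 ± 0.10 (adjusted p = 3.07e-05). Neither gene's groups overlapped. The deleted exons are not given in the sources used here, so the remaining signal does not measure intact messenger RNA. Median intensity lay between 92.6 and 98.6 on the 10 arrays. Xist and genes of the Y chromosome showed 1 female in WT (WT 2) and 2 in DKO (DKO 1 and DKO 3). On the first principal component of all tested genes, which held 44.9% of the variance, the WT arrays lay at -19.7, -10.8 and -18.1 and the DKO arrays at 23.7, 21.6 and 27.4, so WT 2 was the control nearest to DKO. In bulk RNA, fewer cells of a type and less RNA per cell cannot be told apart.

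Markers of other cells were checked on lists of their defining genes. B cell markers (9 on the array, 4 above the filter) summed to 694 to 717 on the linear intensity scale in WT and 562 to 638 in DKO. Cd79a, Ms4a1 and Ebf1, which define B cells, stayed below the filter. Markers of macrophages, dendritic cells and granulocytes (21 genes, 7 tested) summed to 1210 to 1385 in WT and 1093 to 1250 in DKO, with Csf1r, Lyz2 and Itgax below the filter. For thymic epithelium and stroma (17 genes, 12 tested) the sums were 2055 to 2274 and 1717 to 1943. NK and innate lymphoid markers (9 genes, 1 tested) summed to 310 to 329 and 299 to 321, and Ncr1, Eomes and Tbx21 stayed below the filter. None of these 4 lists had a member called higher. Markers of gamma delta T cells (7 genes, 6 tested) summed to 2136 to 2427 and 1628 to 1936, and those of mature CD4 cells, Cd4 included (10 genes, 6 tested), to 6687 to 6908 and 2956 to 3172. The sums for mature CD8 cells (11 genes, 7 tested) were 16899 to 17981 and 13295 to 14289. A linear sum follows its brightest members. Of the 7 tested, 3 were called higher, Runx3 and Nkg7 among them, and 2 lower, with a median difference of 0.27. The 10 DP markers summed to 49791 to 52493 in WT and 25951 to 30861 in DKO, with 7 of the 10 past the test and lower. Double-negative markers (12 genes, 9 tested) summed to 1091 to 1239 in WT and 1520 to 1919 in DKO. That rise came with Il2ra and Dtx1, the 2 of its members past the test. The part of changed cell mixture in the results below was not tested.

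Of the 13138 genes, 1786 differed between DKO and WT at an adjusted p under 0.05 (limma with Benjamini-Hochberg adjustment), which is 13.6% of those tested. There were 1075 genes higher in DKO (8.18%) and 711 lower (5.41%). The 3 DKO and 3 WT values did not overlap for 3945 genes (30.0%), among them 1775 of the 1786 called. Each gene named below as having risen or fallen is one of these 1775. Differences of less than 1.5-fold made up 597 of the rises and 364 of the falls. At least 2-fold were 144 rises and 132 falls, and at least 8-fold were 6 rises and 2 falls. The median difference over all genes was -0.01. Without WT 3 there were 991 calls, without DKO 3 1037 and without DKO 2 1127, while weighting the arrays by their fit gave 3655. The number higher was 654, 543, 667 and 562 without WT 1, WT 3, DKO 2 and DKO 3, and the number lower was 448 without WT 3 and 460 without DKO 2.

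**Figure D1:**
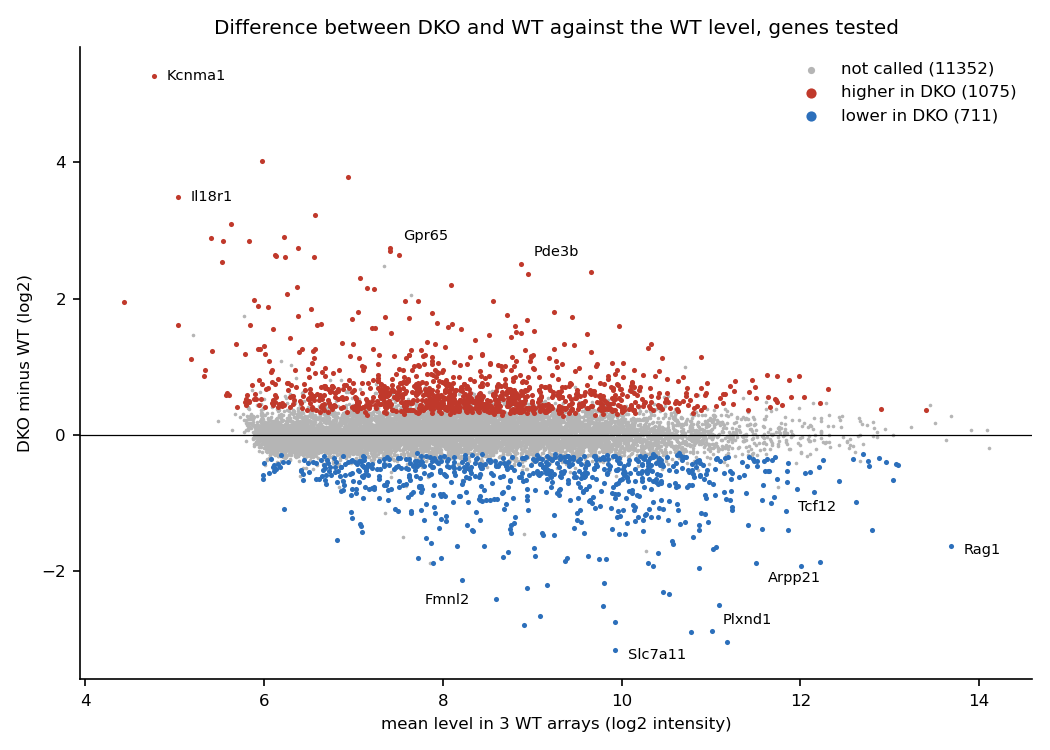
Each point is 1 of the 13138 tested genes, placed by its mean level in the 3 WT arrays (x axis, log2 intensity) and by DKO minus WT (y axis, log2). Red points are the 1075 genes called higher and blue points the 711 called lower. Kcnma1, at 5.27, is the highest point and Slc7a11, at -3.17, the lowest. The WT mean enters both axes, and a gene below the filter in WT was tested only through arrays where it is brighter, so the empty lower left corner and the rises above it are partly set by the choice of genes.

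Gene lists covering the main programs of a thymocyte were then counted. A list's calls are read against the 8.18% higher and 5.41% lower over all genes, and its median against -0.01. Because the lists were chosen with earlier results of these data known, their counts may be partly set by the choice of members. Several lists moved mostly in 1 direction. Cytosolic ribosomal proteins had 37 of 56 members higher and none lower, and TCR-induced genes had 16 of 35 lower and 1 higher. Others, such as cytokine receptors, split both ways. The share higher lay near 8.18% for guidance receptors (7.14%), phospholipid (7.14%), calcium (7.84%), chromatin remodelling (8.7%) and glycan enzyme genes (8.89%). For the NF-kappaB list (6.25%) and the E2F, Myc and Mxd factors (9.09%) it was near that share as well. Rises named from these lists are single genes, not a rise of the list.

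**Figure D2:**
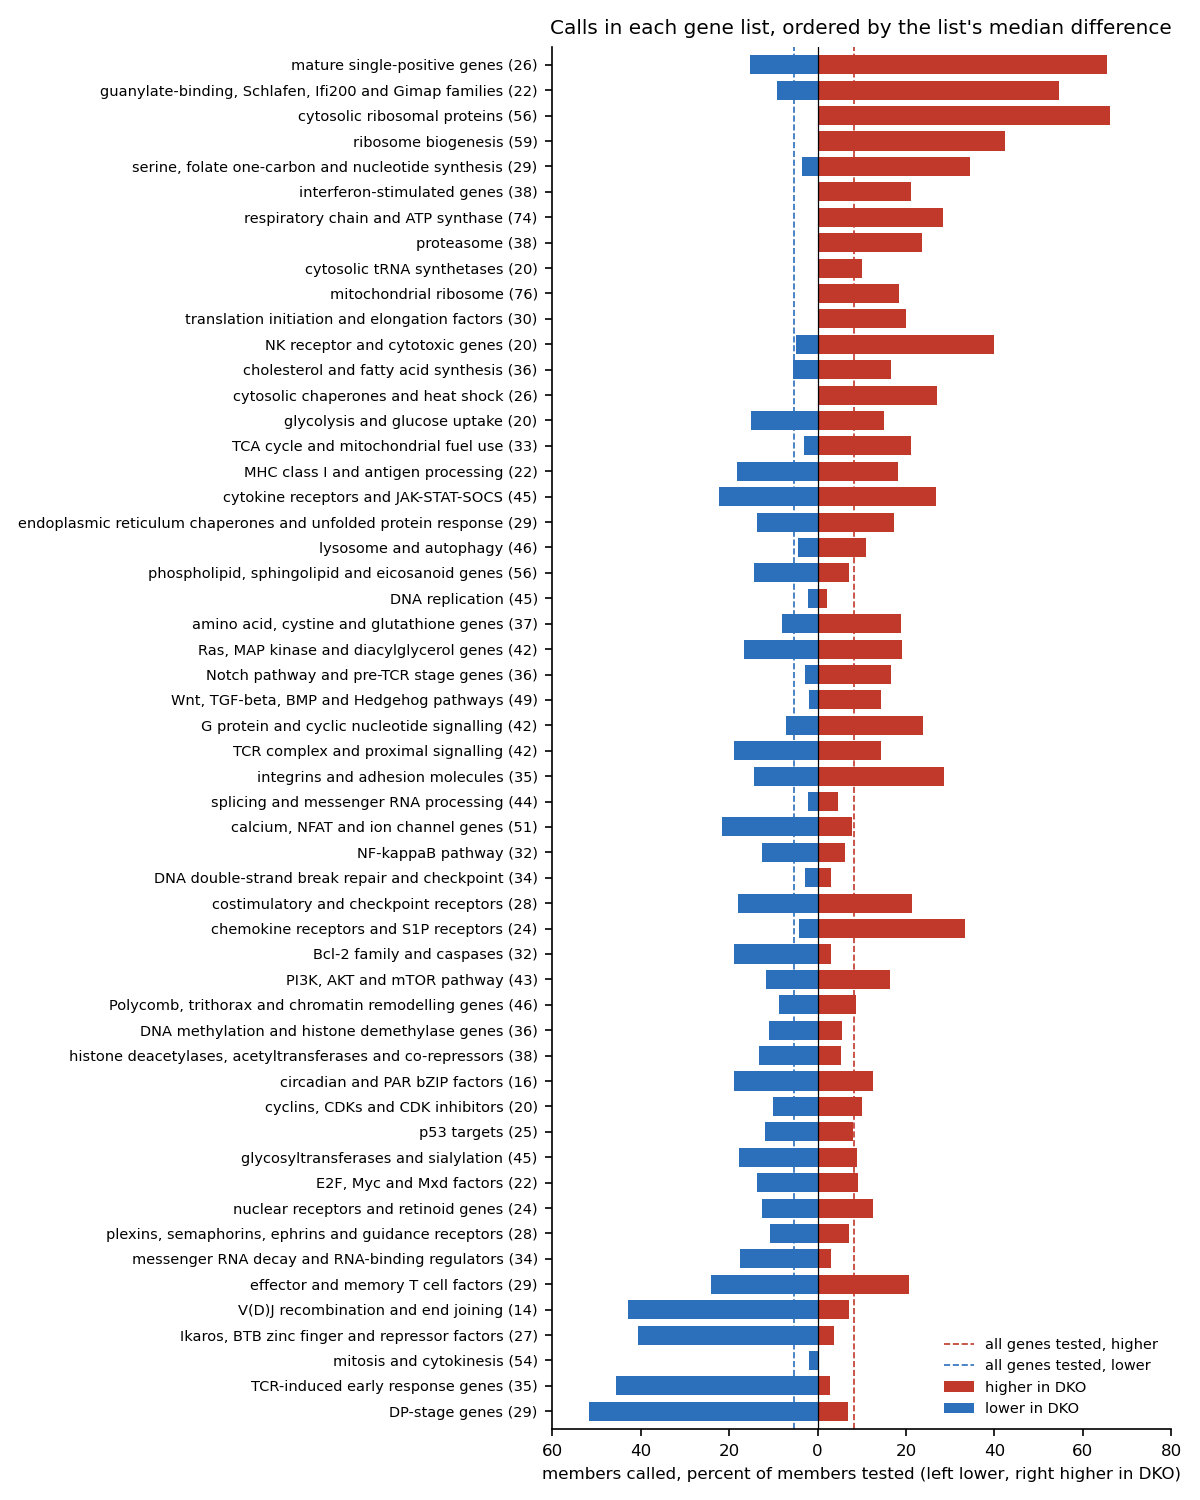
Bars give the percent of a list's tested members called higher (red, right) or lower (blue, left) in DKO, with the number tested in brackets, for reported lists with 14 or more members. Dashed lines mark the percent over all genes tested (8.18 higher, 5.41 lower). Lists run from the highest median difference at the top to the lowest at the bottom.

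Sequences of microRNAs are shown because 3 of the 4 microRNA genes that fell make a product with the same seed. MicroRNAs pair with messenger RNA through bases 2 to 8, printed in capitals below, and lower the output of their targets. miR-181a is known to tune the strength of T cell receptor signalling in thymocytes. Sequences are from RefSeq (GRCm38.p6).
mmu-miR-181a-5p: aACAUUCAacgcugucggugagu
mmu-miR-181b-5p: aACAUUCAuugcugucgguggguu
mmu-miR-128-3p: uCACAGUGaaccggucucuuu
mmu-miR-342-3p: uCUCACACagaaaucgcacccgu
The seed of miR-181a and miR-181b is the same, and it occurs in 6 of the 1738 mature microRNAs of the table. The array reads the precursor genes, not the mature forms.

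Of 115 microRNA genes tested, 4 were lower and 1 higher in DKO. Mir181a-1, on chromosome 1, was 8.38, 9.11 and 9.22 in WT 1 to 3 and 5.74, 6.60 and 5.97 in DKO 1 to 3. All DKO values lay below all WT values, and it fell by 2.80 ± 0.31 (adjusted p = 0.000111). In 2 DKO arrays the gene lay under the 40th percentile of the array, so the size may be understated. Its neighbour Mir181b-1 was 10.26, 10.54 and 10.58 in WT 1 to 3 and 7.64, 8.51 and 8.30 in DKO 1 to 3, again without overlap, and fell by 2.31 ± 0.25 (adjusted p = 9.88e-05). The copy on chromosome 2, Mir181a-2, fell by 0.69 ± 0.16 (adjusted p = 0.0162), a call lost without WT 3 or DKO 2. The gene that surrounds it, Nr6a1, had a difference of -0.13 ± 0.09 (adjusted p = 0.387).

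The other microRNA genes called lie inside genes that moved the same way. Mir128-2 lies within Arpp21, which encodes an RNA-binding phosphoprotein of DP cells. Arpp21 was 11.35, 11.57 and 11.58 in WT 1 to 3 and 9.40, 9.86 and 9.57 in DKO 1 to 3 and fell by 1.89 ± 0.18 (adjusted p = 3.5e-05), while Mir128-2 fell by 0.55 ± 0.10 (adjusted p = 0.00281). Mir342 lies within Evl, an actin regulator of the Ena/VASP family. Evl was 9.29, 8.52 and 9.26 in WT 1 to 3 and 10.64, 10.40 and 10.61 in DKO 1 to 3 and rose by 1.53 ± 0.18, and Mir342, below the 40th percentile in 2 WT arrays, rose by 0.67 ± 0.15 (limma adjusted p = 0.000144 and 0.0113). Small nucleolar RNAs, which guide the modification of ribosomal RNA, had 9 of 48 members higher and none lower, with a median of 0.28. Snord47 rose by 1.17 ± 0.18 and its host Gas5, a non-coding RNA, rose by 0.53 ± 0.10. Snord73a rose by 0.90 ± 0.18 and its host Rps3a1, a ribosomal protein gene, rose by 0.74 ± 0.14. Not all pairs moved together. Snora3 and Snord42a, with differences of -0.24 and -0.10, were not called although their ribosomal protein hosts were called higher. Snord87 rose by 1.27 ± 0.12, Snord49b rose by 1.13 ± 0.19 and Snord35a rose by 0.98 ± 0.19. The signal of a small RNA and that of the intron that holds it cannot be separated on these arrays.

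Many genes for making protein were higher in DKO. Cytosolic ribosomal proteins, the protein part of the ribosome, had 37 of 56 members higher, 0 lower and a median of 0.53. Their median deviation from the WT mean was -0.09, 0.13 and -0.06 in WT 1 to 3 and 0.64, 0.43 and 0.53 in DKO 1 to 3, so each DKO array lay above each control. Rpl41 was 10.58, 10.45 and 10.24 in WT 1 to 3 and 11.71, 11.20 and 11.16 in DKO 1 to 3 and rose by 0.94 ± 0.16 (adjusted p = 0.0022). Rps20 was 10.39, 10.56 and 10.19 in WT 1 to 3 and 11.54, 11.11 and 11.08 in DKO 1 to 3 and rose by 0.87 ± 0.17 (adjusted p = 0.00644). Every DKO value of both genes exceeded every WT value. Rpl10 (difference 0.88), Rplp1 (0.86) and Rps29 (0.81) rose too. The count was 23 and 23 with WT 3 and DKO 1 left out in turn, and the median stayed between 0.45 and 0.60 over all alternatives. Ribosomal protein genes have many near-identical pseudogenes, so their probe sets may read more than the named gene. In the single knockouts the same median was 0.09 and 0.02 in E2AKO and 0.46 and 0.30 in HEBKO.

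Ribosome biogenesis factors, which make and process ribosomal RNA in the nucleolus, had 25 of 59 members higher and 0 lower, with a median of 0.34. Polr1b, the second largest subunit of RNA polymerase I, was 7.01, 7.40 and 6.89 in WT 1 to 3 and 8.08, 8.07 and 8.15 in DKO 1 to 3. Its lowest DKO value lay above its highest WT value, and it rose by 1.00 ± 0.17 (adjusted p = 0.00205). Polr1a, the largest subunit, rose by 0.76 ± 0.13. Nop10, a component of H/ACA ribonucleoproteins, rose by 0.90 ± 0.13, and Npm1, the nucleolar chaperone nucleophosmin, rose by 0.71 ± 0.13. Rrp1b (difference 0.70) and Rrs1 (0.67) rose as well. This count was 13, 12, 15 and 13 with WT 1, WT 3, DKO 2 and DKO 3 left out in turn. Myc, a known activator of ribosome production, was 7.26, 7.97 and 7.70 in WT 1 to 3 and 9.04, 8.52 and 9.10 in DKO 1 to 3 and rose by 1.25 ± 0.20 (adjusted p = 0.00136), and the groups did not overlap.

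Translation factors had 6 of 30 members higher and none lower, with a median of 0.22. Eef1b2, an exchange factor of translation elongation, rose by 0.68 ± 0.14. The helicase gene Eif4a2 rose by 0.61 ± 0.13 and Eif3e, a subunit of initiation factor 3, rose by 0.57 ± 0.11. Higher members numbered 3 with WT 3 left out. The median deviation of translation factors was 0.199, 0.216 and 0.212 in DKO 1 to 3. In the single knockouts it was 0.107 and -0.021 in E2AKO and 0.228 and 0.224 in HEBKO, so both HEBKO arrays lay above all DKO arrays. Among cytosolic tRNA synthetases 2 of 20 were higher, and their median was 0.24. That count was 0, 9, 0, 1, 1 and 0 with WT 1, WT 2, WT 3, DKO 1, DKO 2 and DKO 3 left out in turn.

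Mitochondrial genes were higher by smaller amounts. The respiratory chain and ATP synthase had 21 of 74 members higher and none lower, with a median of 0.30. Their median deviation was -0.08, 0.15 and -0.08 in WT 1 to 3 and 0.30, 0.34 and 0.31 in DKO 1 to 3. It was 0.06 and -0.04 in E2AKO and 0.39 and 0.36 in HEBKO, so both HEBKO arrays lay above all DKO arrays. Cox7b, a subunit of cytochrome c oxidase, was 8.66, 9.01 and 8.43 in WT 1 to 3 and 9.78, 9.76 and 9.57 in DKO 1 to 3. It rose by 1.00 ± 0.15 (adjusted p = 0.000807) without overlap between the groups. Ndufc2, a subunit of complex I, rose by 0.81 ± 0.16, and Cox7a2l, which joins complexes into supercomplexes, rose by 0.59 ± 0.11. The count was 10, 33, 6, 9 and 6 with WT 1, WT 2, WT 3, DKO 2 and DKO 3 left out in turn. Mitochondrial ribosomal proteins had 14 of 76 members higher, and Mrpl48 (0.60) and Mrps18b (0.58) were among them. Here the median deviation was -0.15, 0.16 and -0.01 in WT and 0.18, 0.22 and 0.27 in DKO, so WT 2 lay close to DKO 1. The number called was 3, 27, 2, 3 and 3 with WT 1, WT 2, WT 3, DKO 2 and DKO 3 left out in turn.

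Subunits of the proteasome, which degrades tagged proteins, had 9 of 38 members higher and a median of 0.30. The median deviation of WT 2 was above that of DKO 1, with -0.15, 0.23 and -0.07 in WT 1 to 3 and 0.21, 0.32 and 0.29 in DKO 1 to 3. In the single knockouts it was 0.10 and -0.02 in E2AKO and 0.32 and 0.41 in HEBKO. Psme2, part of the interferon-inducible activator, rose by 0.85 ± 0.13 (adjusted p = 0.000935), Psma3 rose by 0.59 ± 0.11 and Psmd14 rose by 0.56 ± 0.11. The count was 5, 21, 3, 3 and 5 with WT 1, WT 2, WT 3, DKO 2 and DKO 3 left out in turn. The list of cytosolic chaperones, which also holds some mitochondrial ones, had 7 of 26 higher. That count was 4, 2, 4 and 4 with WT 1, WT 3, DKO 2 and DKO 3 left out in turn. Hspe1, the mitochondrial co-chaperonin, rose by 0.78 ± 0.16, and Cct6a, a subunit of the CCT chaperonin, rose by 0.64 ± 0.13. Array medians were -0.08, 0.23 and -0.15 in WT 1 to 3 and 0.10, 0.37 and 0.21 in DKO 1 to 3. WT 2 thus lay above DKO 1 and DKO 3.

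**Figure D3:**
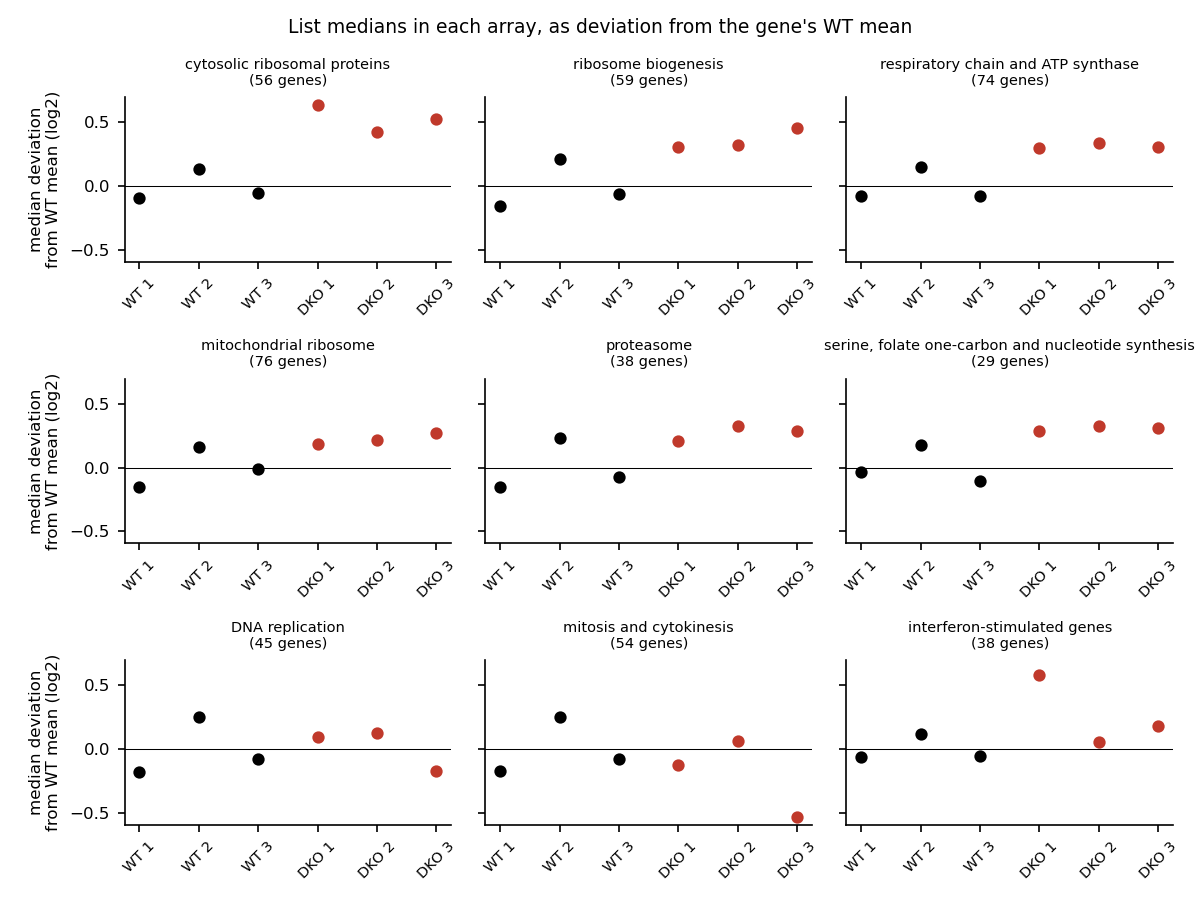
Each point is the median over a list's tested genes of the gene's level in that array minus its mean in WT (y axis, log2), for WT arrays (black) and DKO arrays (red). The ribosomal protein medians of the 3 DKO arrays, 0.64, 0.43 and 0.53, lie above all controls. WT 2 is the highest control in every panel, and DKO 1 is the highest array for interferon-stimulated genes.

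Few genes of DNA replication and mitosis were called. DNA replication had 1 of 45 members higher, 1 lower and a median of 0.05. Rpa1, a subunit of the complex that coats single-stranded DNA, rose by 0.65 ± 0.10. Mitosis and cytokinesis had 0 of 54 members higher and 1 lower, with a median of -0.21. Array medians were -0.13, 0.07 and -0.53 in DKO 1 to 3 and -0.17, 0.25 and -0.08 in WT 1 to 3, so the groups overlapped and DKO 3 was lowest. The 1 call in mitosis, Foxm1, was lost in 10 of 21 alternatives, among them each run without 1 WT array, each without 1 HEBKO array, and those without DKO 2 or DKO 3. Cyclins, CDKs and their inhibitors had 2 of 20 members higher and 2 lower. The number higher there was 1, 1 and 1 with WT 3, DKO 1 and DKO 2 left out in turn, and the number lower was 1 and 1 with WT 3 and DKO 2 left out in turn. Among them Ccnd3, the D cyclin known for pre-TCR driven division, was 11.16, 10.94 and 11.02 in WT 1 to 3 and 10.37, 10.13 and 9.95 in DKO 1 to 3 and fell by 0.89 ± 0.14 (adjusted p = 0.00159). The kinase gene Cdk6 rose by 0.59 ± 0.12. The E2F, Myc and Mxd factors had 2 of 22 members higher, Myc among them, and 3 lower. In this list E2f2 fell by 1.04 ± 0.17 (adjusted p = 0.00173) and E2f6, a repressor, rose by 0.83 ± 0.16, while Mxd4, an antagonist of Myc, fell by 0.60 ± 0.12.

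Metabolic genes split by pathway. Enzymes of serine, folate and nucleotide synthesis had 10 of 29 members higher and 1 lower, with a median of 0.34. Shmt2, the mitochondrial serine hydroxymethyltransferase, was 7.68, 7.93 and 7.51 in WT 1 to 3 and 8.67, 8.58 and 8.45 in DKO 1 to 3. It rose by 0.86 ± 0.15 (adjusted p = 0.00241) without overlap. Atic, which completes purine synthesis, rose by 0.81 ± 0.13, and Prps1, which supplies activated ribose, rose by 0.74 ± 0.14. Ctps2, a CTP synthase, rose by 0.66 ± 0.12. The count was 5, 5, 5 and 6 with WT 1, WT 3, DKO 1 and DKO 3 left out in turn. The list's median deviation from the WT mean was 0.29, 0.33 and 0.31 in DKO 1 to 3. In the single knockouts it was 0.12 and -0.17 in E2AKO and 0.45 and 0.33 in HEBKO.

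In the cystine and glutathione list 7 of 37 members were higher and 3 lower. Slc7a11, the cystine importer, was 9.66, 10.14 and 9.99 in WT 1 to 3 and 6.07, 7.58 and 6.63 in DKO 1 to 3 and fell by 3.17 ± 0.30 (adjusted p = 3.57e-05), the largest fall of all genes tested, a 9-fold difference. The neutral amino acid transporter gene Slc43a1 fell by 1.10 ± 0.13. In the other direction, the glutathione transferase genes Gsto1 (difference 0.82), Gstp1 (0.75) and Gstt2 (0.75) rose, as did Nfe2l2 (0.58), the antioxidant factor NRF2.

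Glucose and fat metabolism changed in both directions. Glycolysis had 3 of 20 members higher and 3 lower. Ldhb, a lactate dehydrogenase, was 10.10, 10.42 and 9.98 in WT 1 to 3 and 9.22, 9.50 and 9.14 in DKO 1 to 3 and fell by 0.88 ± 0.15 (adjusted p = 0.00185). Pfkfb3, which raises the activator of phosphofructokinase, fell by 0.82 ± 0.09. The transporter gene Slc2a3 rose by 0.58 ± 0.10 and Aldoa, an aldolase, rose by 0.57 ± 0.12. Cholesterol and fatty acid synthesis had 6 of 36 members higher and 2 lower, with a median of 0.18. Elovl6, which lengthens saturated fatty acids, was 7.40, 7.50 and 7.32 in WT 1 to 3 and 9.94, 10.13 and 10.25 in DKO 1 to 3. Every DKO value lay above every WT value, and it rose by 2.70 ± 0.12 (adjusted p = 1.63e-07), a 6.49-fold difference. Hmgcs1, an early enzyme of cholesterol synthesis, rose by 1.08 ± 0.13, and Abcg1, which exports cholesterol, fell by 0.80 ± 0.13. The number higher was 3, 3 and 3 with WT 1, WT 3 and DKO 2 left out in turn, and the number lower was 1, 1, 1, 1, 1 and 1 with WT 1, WT 3, E2AKO 1, E2AKO 2, DKO 2 and DKO 3 left out in turn. In the list of the TCA cycle and mitochondrial fuel use 7 of 33 were higher and 1 lower, with a median of 0.17. Suclg2, a subunit of succinyl-CoA ligase, rose by 0.89 ± 0.13, and the 1 member lower, Idh2, the mitochondrial isocitrate dehydrogenase, fell by 0.54 ± 0.09. Higher members came to 2, 4 and 3 with WT 3, DKO 2 and DKO 3 left out in turn.

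Phospholipid, sphingolipid and eicosanoid genes had 4 of 56 members higher and 8 lower. Atp8b4, a phospholipid flippase, rose by 2.84 ± 0.13 (adjusted p = 1.63e-07) from a level below the 40th percentile in all 3 WT arrays. Sgms1, which makes sphingomyelin from ceramide, rose by 1.87 ± 0.15, and 2 of its WT arrays lay below that percentile. Ugcg, which makes glucosylceramide from ceramide, fell by 0.58 ± 0.10. Atp10a, another flippase, fell by 1.15 ± 0.12, and Pla2g6, a phospholipase, fell by 0.73 ± 0.10. The number lower was 5, 5, 5 and 4 with WT 2, WT 3, DKO 2 and DKO 3 left out in turn, and the number higher was 2, 2 and 2 with WT 3, DKO 2 and DKO 3 left out in turn.

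Enzymes that build surface glycans had 4 of 45 members higher and 8 lower. St3gal1, which caps core 1 O-glycans with sialic acid and is known to rise when DP cells mature, was 8.01, 8.22 and 8.08 in WT 1 to 3 and 9.50, 9.50 and 10.19 in DKO 1 to 3. It rose by 1.62 ± 0.18 (adjusted p = 9.61e-05) without overlap. C1galt1, which makes the core 1 structure itself, fell by 0.83 ± 0.11. Chst10, a sulfotransferase, fell by 0.89 ± 0.13, and St3gal6 fell by 0.77 ± 0.15. Ext1, which polymerises heparan sulfate, rose by 0.67 ± 0.11. Those higher came to 2, 2, 2 and 2 with WT 2, WT 3, DKO 1 and DKO 3 left out in turn.

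Endoplasmic reticulum and unfolded protein response genes moved in both directions. Atf6, a membrane-bound sensor, was 7.37, 7.85 and 7.56 in WT 1 to 3 and 8.58, 8.44 and 9.12 in DKO 1 to 3 and rose by 1.12 ± 0.17 (adjusted p = 0.00103). Xbp1, the factor made active by the IRE1 arm, was 10.05, 10.27 and 10.12 in WT 1 to 3 and 8.92, 9.31 and 9.03 in DKO 1 to 3 and fell by 1.06 ± 0.14 (adjusted p = 0.000372). Eif2ak3, the sensor PERK, fell by 0.93 ± 0.13. Neither Atf6 nor Xbp1 overlapped between the groups. Edem1, which helps clear misfolded proteins, fell by 0.68 ± 0.11, and Herpud1, of the same pathway, rose by 0.59 ± 0.10. Over the list 5 of 29 were higher and 4 lower, and the number higher was 3, 3, 3 and 3 with WT 1, WT 3, DKO 2 and DKO 3 left out in turn.

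Of the lysosomal and autophagy genes 5 of 46 were higher and 2 lower. The list's largest difference, 2.47, belonged to a member that was not called or whose groups overlapped. Ctss, a cathepsin, rose by 1.55 ± 0.19 (adjusted p = 0.000259), with 2 WT arrays below the 40th percentile. Ctsc, which activates granule proteases, rose by 1.00 ± 0.14, and Npc2, which moves cholesterol out of the lysosome, rose by 1.21 ± 0.09. Lgmn, a lysosomal endopeptidase among the 60 largest rises, rose by 1.98 ± 0.16, also with 2 WT arrays below it. Psap, the precursor of the saposins, fell by 0.47 ± 0.08. The number lower was 1, 1, 1, 1 and 1 with WT 1, WT 2, DKO 1, DKO 2 and DKO 3 left out in turn.

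Cytokine receptors were changed at several members in each direction. The list, which includes JAK, STAT and SOCS genes, had 12 of 45 members higher (26.7%) and 10 lower (22.2%). Il18r1, the ligand-binding chain of the interleukin 18 receptor, was 5.11, 4.85 and 5.17 in WT 1 to 3 and 8.53, 8.45 and 8.64 in DKO 1 to 3. It rose by 3.50 ± 0.11 (adjusted p = 1.5e-08), an 11.3-fold difference, and its partner Il18rap rose by 1.62 ± 0.14 (adjusted p = 2.39e-05). Both lay below the 40th percentile in all 3 WT arrays, so their rise may be larger than measured. Both also lay below it in E2AKO and HEBKO. They thus passed the filter only through DKO, and a fall could not have been called. Il12rb2, the signalling chain for interleukin 12, was 6.47, 6.88 and 6.33 in WT 1 to 3 and 9.13, 9.01 and 9.39 in DKO 1 to 3 and rose by 2.61 ± 0.19 (adjusted p = 5.09e-06).

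Receptors of the common gamma chain family went separate ways. Il7r, the receptor of the survival cytokine interleukin 7 and also below the 40th percentile in WT, was 5.22, 6.00 and 5.69 in WT 1 to 3 and 8.55, 8.55 and 9.12 in DKO 1 to 3 and rose by 3.10 ± 0.31 (adjusted p = 4.84e-05). Il2ra, the high-affinity chain for interleukin 2, was 6.33, 6.57 and 6.22 in WT 1 to 3 and 8.80, 7.96 and 8.87 in DKO 1 to 3 and rose by 2.17 ± 0.20 (adjusted p = 2.97e-05). Il4ra was 10.58, 10.55 and 10.42 in WT 1 to 3 and 8.96, 9.49 and 9.36 in DKO 1 to 3 and fell by 1.25 ± 0.13 (adjusted p = 8.6e-05), and Il21r, for interleukin 21, fell by 0.76 ± 0.11 (adjusted p = 0.000798). In none of these 4 did the groups overlap. Il17rb, part of the interleukin 25 receptor, rose by 1.56 ± 0.22, while Il17re, for interleukin 17C, fell by 1.12 ± 0.14. The interferon gamma receptor chain gene Ifngr1 fell by 0.75 ± 0.15. Of the SOCS genes, which encode feedback inhibitors of JAK kinases, Socs1 was 8.90, 8.68 and 8.69 in WT 1 to 3 and 8.10, 8.07 and 8.10 in DKO 1 to 3 and fell by 0.67 ± 0.09 (adjusted p = 0.000493). Socs3 fell by 0.68 ± 0.14 (adjusted p = 0.00639).

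Chemokine and S1P receptors, which steer cells within the thymus and out of it, had 8 of 24 members higher and 1 lower. The same 8 genes were called higher in each of the 10 runs that left out 1 array. Ccr7, which draws selected cells to the medulla, was 7.65, 7.47 and 7.41 in WT 1 to 3 and 10.12, 10.03 and 10.32 in DKO 1 to 3 and rose by 2.65 ± 0.19 (adjusted p = 5.17e-06). S1pr1, the receptor needed to leave the thymus, was 6.37, 6.19 and 6.14 in WT 1 to 3 and 9.45, 8.04 and 9.03 in DKO 1 to 3. It rose by 2.61 ± 0.29 (adjusted p = 0.000119), with DKO 2 the lowest DKO array. Ccr4 rose by 1.59 ± 0.28 (adjusted p = 0.00263). Gpr65, a receptor for protons, was 7.33, 7.66 and 7.24 in WT 1 to 3 and 9.92, 10.39 and 10.14 in DKO 1 to 3 and rose by 2.74 ± 0.17 (adjusted p = 1.89e-06). Gpr18 rose by 1.72 ± 0.15 and Gpr171 rose by 0.94 ± 0.14. Cxcr4, which keeps DP cells in the cortex, was the 1 call in the other direction, at 13.12, 13.13 and 12.87 in WT 1 to 3 and 12.35, 12.67 and 12.09 in DKO 1 to 3, and fell by 0.67 ± 0.14 (adjusted p = 0.00709).

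**Figure D4:**
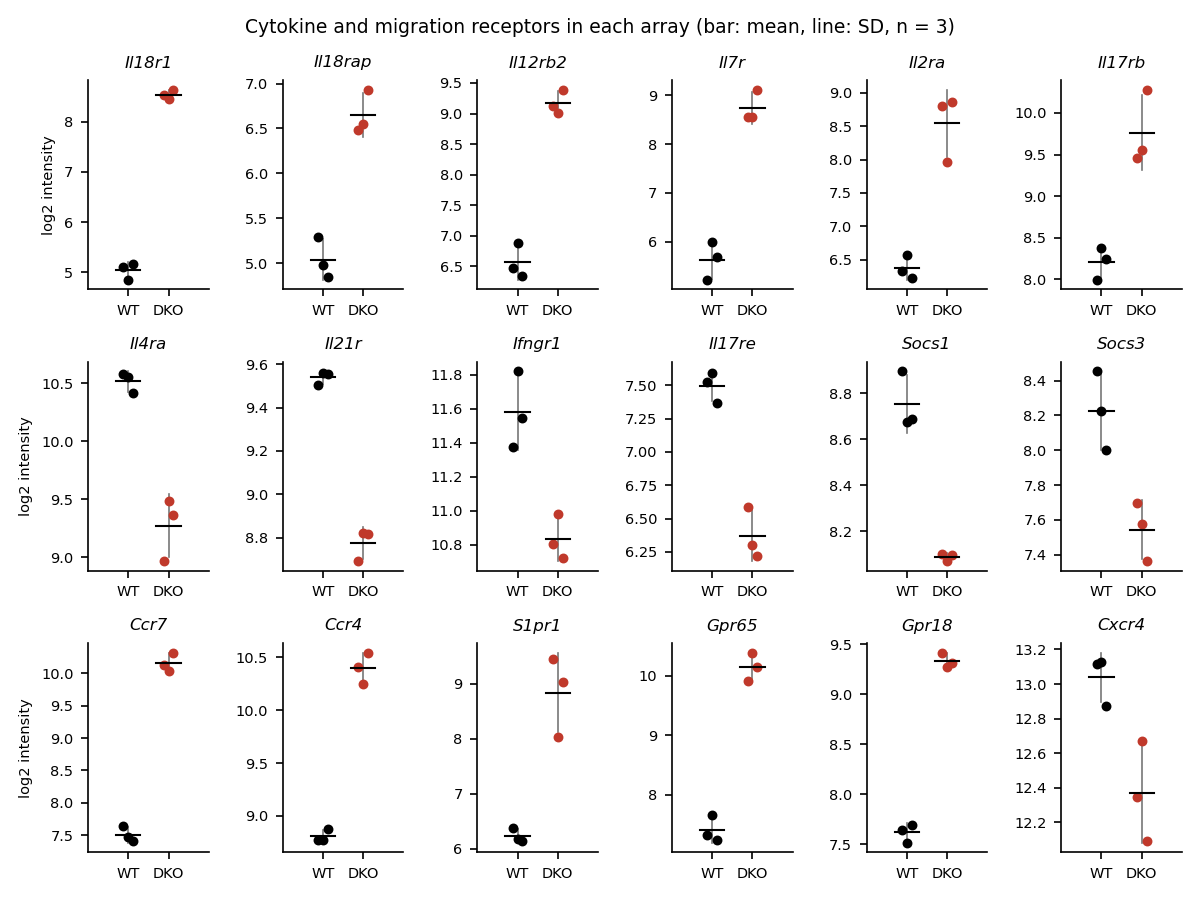
Points are the log2 intensity of single arrays (y axis, scaled for each gene) in WT (black, n = 3) and DKO (red, n = 3), with the mean as a bar and the SD as a line. In all 18 receptor and SOCS genes shown the WT and DKO arrays do not overlap. Il18r1 has a difference of 3.50 and Cxcr4 of -0.67.

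Genes of the cytoskeleton were among the 60 largest rises and the 60 largest falls. Vim, the intermediate filament vimentin, was 9.96, 10.23 and 9.73 in WT 1 to 3 and 11.55, 11.36 and 11.81 in DKO 1 to 3 and rose by 1.60 ± 0.19 (adjusted p = 0.000181). Fmnl2, a formin that lengthens actin filaments, was 8.49, 8.77 and 8.53 in WT 1 to 3 and 6.38, 6.37 and 5.77 in DKO 1 to 3 and fell by 2.42 ± 0.16 (adjusted p = 2.48e-06). Its DKO arrays lay below all controls, 1 of them below the 40th percentile.

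Integrins and adhesion molecules had 10 of 35 members higher and 5 lower. Cd53, a tetraspanin of leukocytes, was 9.64, 9.76 and 9.56 in WT 1 to 3 and 12.16, 11.90 and 12.09 in DKO 1 to 3 and rose by 2.39 ± 0.30 (adjusted p = 0.000251). Itgb7, the beta chain of the gut-homing integrin, rose by 1.57 ± 0.18, and Tspan32, another tetraspanin, rose by 1.25 ± 0.18. Itga6, which binds laminin, fell by 0.82 ± 0.10. Rises in this list numbered 6, 5, 6 and 5 with WT 1, WT 3, DKO 1 and DKO 3 left out in turn. Guidance receptors and their ligands had 2 of 28 members higher and 3 lower, and the number higher was 1, 1, 1 and 1 with WT 2, WT 3, DKO 1 and DKO 3 left out in turn. Plxnd1, a plexin that steers DP cells toward the medulla, was 10.97, 11.02 and 11.04 in WT 1 to 3 and 8.05, 8.40 and 7.95 in DKO 1 to 3 and fell by 2.88 ± 0.13 (adjusted p = 1.63e-07), a 7.35-fold difference. Sema7a, a semaphorin held in the membrane, fell by 2.17 ± 0.10 (adjusted p = 1.63e-07). Nrp1, a co-receptor for semaphorins, rose by 1.02 ± 0.19, and Sema4d fell by 0.65 ± 0.10.

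Signalling through TGF-beta, G proteins and cyclic AMP had more members higher than lower. The Wnt, TGF-beta, BMP and Hedgehog list had 7 of 49 higher and 1 lower. Smad7, the inhibitor that TGF-beta signalling induces, was 6.73, 6.50 and 6.55 in WT 1 to 3 and 8.56, 7.82 and 8.25 in DKO 1 to 3. It rose by 1.61 ± 0.20 (adjusted p = 0.000269) without overlap. Tgfbr2, the receptor chain that binds TGF-beta, rose by 0.79 ± 0.14, and Smad3, a mediator, rose by 0.55 ± 0.12. Znrf3, which removes Wnt receptors, rose by 0.75 ± 0.12. G protein and cyclic nucleotide genes had 10 of 42 higher and 3 lower. Pde3b, which hydrolyses cyclic AMP, was 8.74, 8.99 and 8.88 in WT 1 to 3 and 11.29, 11.35 and 11.48 in DKO 1 to 3 and rose by 2.50 ± 0.12 (adjusted p = 2.64e-07). Another phosphodiesterase gene, Pde7a, rose by 1.43 ± 0.17 (adjusted p = 0.000215), and Adcy7, which makes cyclic AMP, rose by 0.82 ± 0.11. Gng2, a gamma subunit, rose by 1.04 ± 0.18. The number higher was 6 with WT 3 left out, and the number lower was 1, 1 and 1 with WT 3, DKO 2 and DKO 3 left out in turn.

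In the Notch and pre-TCR list 6 of 36 members were higher and 1 lower. Besides Il2ra, Dtx1, a target and regulator of Notch, was 7.39, 7.16 and 7.07 in WT 1 to 3 and 9.11, 8.58 and 8.64 in DKO 1 to 3 and rose by 1.57 ± 0.14 (adjusted p = 2.97e-05). Lfng, which modifies Notch so that it binds Delta ligands, rose by 1.08 ± 0.19, with 2 WT arrays below the 40th percentile, and Numb, a Notch antagonist, rose by 0.65 ± 0.13.

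Many genes that T cell receptor (TCR) signals induce were lower, feedback inhibitors among them. Of 35 TCR-induced genes, 16 were lower and 1, Myc, higher, with a median of -0.25. Cd5, a surface inhibitor whose level follows TCR signal strength, was 10.38, 10.52 and 10.68 in WT 1 to 3 and 8.05, 8.12 and 8.38 in DKO 1 to 3 and fell by 2.34 ± 0.19 (adjusted p = 1.45e-05). Dusp6, a phosphatase that switches off ERK, fell by 1.38 ± 0.16, and Dusp4 fell by 1.25 ± 0.12. In the NF-kappaB list 4 of 32 were lower and 2 higher. Tnfaip3, the inhibitor A20, was 10.15, 10.38 and 10.28 in WT 1 to 3 and 8.89, 9.36 and 9.06 in DKO 1 to 3 and fell by 1.17 ± 0.14 (adjusted p = 0.000234). Nfkbia, which encodes IkBalpha and is itself induced by NF-kappaB, fell by 1.07 ± 0.14 (adjusted p = 0.000391), and Nfkbie fell by 0.75 ± 0.09. Ikbke, an IkB kinase relative, rose by 1.09 ± 0.11.

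Around the receptor itself the changes were mixed. Proximal signalling genes had 6 of 42 members higher and 8 lower. Cd247, the zeta chain, fell by 0.69 ± 0.10 (adjusted p = 0.000842). Syk, a kinase relative of ZAP-70, fell by 0.88 ± 0.10, Vav2, an exchange factor, fell by 0.95 ± 0.09, and Cbl, a ubiquitin ligase, fell by 0.70 ± 0.10, while Ptpn22, an inhibitory phosphatase, rose by 0.69 ± 0.12. Higher members numbered 2 and 2 with WT 3 and DKO 3 left out in turn. Costimulatory and checkpoint receptors had 6 of 28 higher and 5 lower. Cd6, a relative of Cd5, fell by 1.74 ± 0.10, and Pvr, a ligand of Cd226, fell by 1.56 ± 0.12. Cd226 itself, an activating receptor of cytotoxic cells, was 6.64, 7.05 and 7.13 in WT 1 to 3 and 10.42, 10.75 and 11.01 in DKO 1 to 3 and rose by 3.79 ± 0.26 (adjusted p = 4.24e-06). Cd48 rose by 1.17 ± 0.12 and Tnfrsf14, the receptor HVEM, rose by 0.94 ± 0.11.

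Downstream, enzymes that handle diacylglycerol changed on each side. The Ras, MAP kinase and diacylglycerol list had 8 of 42 members higher and 7 lower. Rasa3, which turns Ras proteins off, was 8.79, 8.60 and 8.78 in WT 1 to 3 and 10.67, 10.18 and 10.60 in DKO 1 to 3 and rose by 1.76 ± 0.18 (adjusted p = 6.62e-05). The diacylglycerol kinase gene Dgke fell by 1.50 ± 0.20, and Dgkd, of the same family, fell by 0.95 ± 0.09. The start of Dgke lies next to that of Dgkeos, which is on the opposite strand and fell by 1.46 ± 0.28. Prkcz, an atypical protein kinase C, fell by 0.98 ± 0.14, and Prkch, which binds diacylglycerol, rose by 0.87 ± 0.09. Those higher came to 5 and 5 with WT 3 and DKO 3 left out in turn.

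Calcium and ion channel genes had 4 of 51 members higher and 11 lower. Scn4b, a sodium channel subunit, was 7.88, 7.69 and 7.62 in WT 1 to 3 and 5.91, 5.73 and 6.10 in DKO 1 to 3 and fell by 1.81 ± 0.21 (adjusted p = 0.000141). Of its DKO arrays, 2 lay below the 40th percentile. Cacna1e, a calcium channel, was 8.47, 9.37 and 8.20 in WT 1 to 3 and 6.86, 7.12 and 6.67 in DKO 1 to 3 and fell by 1.79 ± 0.29 (adjusted p = 0.00167). P2rx1, an ATP-gated channel, fell by 1.37 ± 0.18, Kcnh2, a potassium channel, fell by 1.09 ± 0.12, and Nfatc3, the main NFAT factor of DP cells, fell by 0.85 ± 0.11. Atp1b1, a sodium pump subunit among the 60 largest falls, fell by 1.81 ± 0.10. Kcnma1, a large-conductance potassium channel, had the largest difference of all genes but not in all DKO arrays, at 4.69, 4.79 and 4.84 in WT 1 to 3 and 12.99, 12.19 and 4.97 in DKO 1 to 3. It lay below the 40th percentile in WT and in DKO 3. Its value of 5.27 ± 1.55 (adjusted p = 0.0429) lost the call in 11 of 21 alternatives, among them every run without 1 array except DKO 3. Rises in this list numbered 2, 1, 1, 2 and 2 with WT 1, WT 2, WT 3, DKO 2 and DKO 3 left out in turn.

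The PI3K, AKT and mTOR list had 7 of 43 higher and 5 lower. Pik3cd, the leukocyte catalytic subunit, was 9.07, 9.04 and 8.95 in WT 1 to 3 and 10.07, 9.77 and 10.13 in DKO 1 to 3 and rose by 0.97 ± 0.14 (adjusted p = 0.000718). Prkaa1, the catalytic subunit of the energy sensor AMPK, rose by 1.01 ± 0.11, and Sgk1, a kinase related to AKT, rose by 0.80 ± 0.10. Sesn1, an inhibitor of mTORC1, rose by 0.69 ± 0.09. The number higher was 4, 4 and 4 with WT 1, WT 3 and DKO 3 left out in turn. The number lower was 2, 3, 1, 2, 2 and 3 with WT 1, WT 2, WT 3, DKO 1, DKO 2 and DKO 3 left out in turn.

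Transcriptional repressors were lower more often than higher. Of 27 Ikaros, BTB zinc finger and related repressor genes, 11 were lower and 1 higher, with a median of -0.21. Bcl6, a BTB zinc finger repressor, was 10.83, 10.95 and 10.82 in WT 1 to 3 and 9.29, 9.78 and 9.54 in DKO 1 to 3. It fell by 1.33 ± 0.17 (adjusted p = 0.000285) without overlap. Gfi1, a repressor of stem and myeloid genes, was 9.47, 9.53 and 9.53 in WT 1 to 3 and 8.52, 8.70 and 8.50 in DKO 1 to 3 and fell by 0.94 ± 0.10 (adjusted p = 7.91e-05). Hivep3, a large zinc finger protein, fell by 0.88 ± 0.14, and Hivep2 fell by 0.68 ± 0.11. The number lower was 6, 7, 5 and 7 with WT 1, WT 3, DKO 2 and DKO 3 left out in turn. Cbfa2t3, the co-repressor ETO2 that joins E proteins on DNA, was 8.70, 8.89 and 8.60 in WT 1 to 3 and 7.15, 7.01 and 6.84 in DKO 1 to 3 and fell by 1.73 ± 0.13 (adjusted p = 5.9e-06). Hdac7, a deacetylase that keeps TCR-induced genes silent in DP cells, fell by 0.63 ± 0.09, while Tle4, a Groucho co-repressor, rose by 0.85 ± 0.13.

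Chromatin remodelling genes had 4 of 46 members higher and 4 lower. Chd3, a helicase of the NuRD complex, was 8.86, 8.83 and 8.92 in WT 1 to 3 and 10.27, 10.04 and 10.77 in DKO 1 to 3 and rose by 1.49 ± 0.20 (adjusted p = 0.000421). Ezh1, a histone methyltransferase of Polycomb, rose by 0.97 ± 0.10 (adjusted p = 8.33e-05). Smarca4, the BRG1 motor of the BAF complex, fell by 0.69 ± 0.08, and its partner Smarcd2 fell by 0.57 ± 0.11. Chd1 fell by 0.86 ± 0.09. Higher members numbered 2, 2 and 2 with WT 1, DKO 2 and DKO 3 left out in turn. Among regulators of messenger RNA, 6 of 34 were lower and 1 higher. Besides Arpp21, Btg2, which speeds the removal of poly(A) tails, was 11.76, 11.72 and 11.63 in WT 1 to 3 and 10.60, 10.90 and 10.86 in DKO 1 to 3 and fell by 0.91 ± 0.12 (adjusted p = 0.000346). Zfp36l1, which binds AU-rich elements, rose by 0.66 ± 0.10. Counts of those lower were 3, 3, 2, 2 and 2 with WT 2, WT 3, DKO 1, DKO 2 and DKO 3 left out in turn.

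Factors of effector and memory T cells had 6 of 29 members higher and 7 lower. Runx3, which silences Cd4 in the CD8 lineage, was 7.21, 7.18 and 7.31 in WT 1 to 3 and 9.43, 9.04 and 9.65 in DKO 1 to 3 and rose by 2.14 ± 0.22 (adjusted p = 7.17e-05). Foxo1, which drives Il7r and Klf2, was 8.72, 8.65 and 8.19 in WT 1 to 3 and 9.95, 9.77 and 10.25 in DKO 1 to 3 and rose by 1.47 ± 0.19 (adjusted p = 0.000297). Klf2, a factor of thymic exit, rose by 0.78 ± 0.17, and Klf3 fell by 0.67 ± 0.13. Id3, the Id protein gene named above, had the largest fall of the list (difference -1.63, limma adjusted p = 0.000687). The number lower was 4, 3, 4, 3 and 4 with WT 2, WT 3, DKO 1, DKO 2 and DKO 3 left out in turn. Nuclear receptor and retinoid genes had 3 of 24 members higher and 3 lower. Rora rose by 2.07 ± 0.26 (adjusted p = 0.000302) and Nr4a1, induced by TCR signals, fell by 1.83 ± 0.24 (adjusted p = 0.000392). Rora lay below the 40th percentile in WT 1. Dhrs3, which returns retinal to retinol, was 11.14, 11.22 and 11.18 in WT 1 to 3 and 7.69, 8.64 and 8.06 in DKO 1 to 3 and fell by 3.05 ± 0.29 (adjusted p = 3.49e-05). In the circadian list 2 of 16 members were higher and 3 lower. Arntl, the clock factor BMAL1, fell by 0.98 ± 0.10, Csnk1e, which phosphorylates PER proteins, fell by 0.65 ± 0.10, and Dbp, an output factor of the clock, rose by 0.58 ± 0.09.

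**Figure D5:**
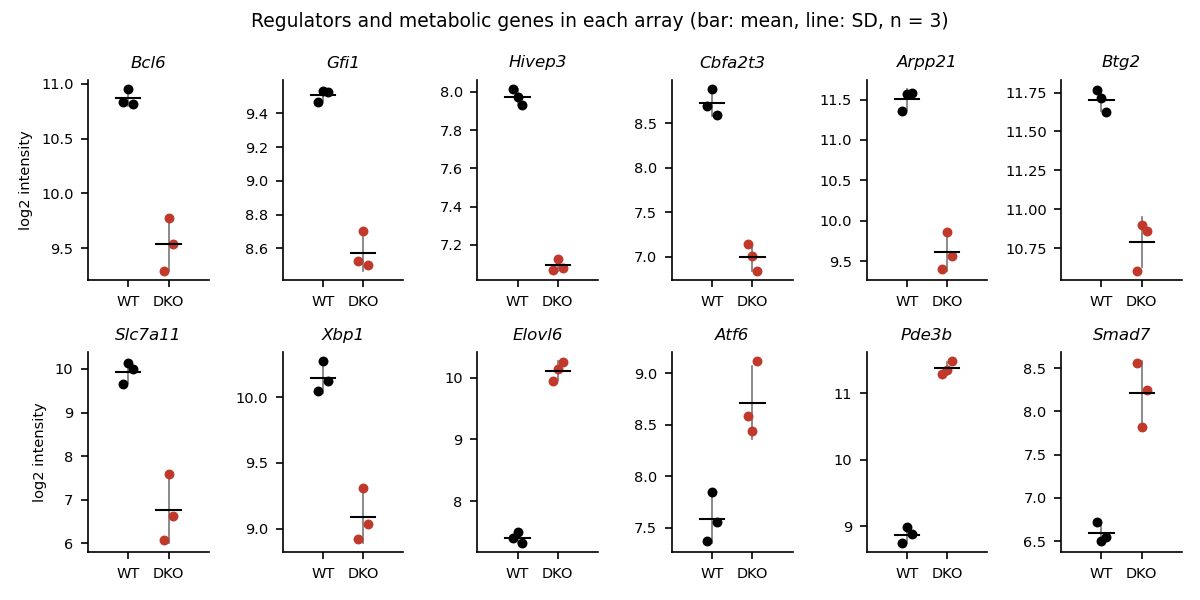
Points are the log2 intensity of single arrays (y axis, scaled for each gene) in WT (black, n = 3) and DKO (red, n = 3), with the mean as a bar and the SD as a line. Bcl6, Gfi1, Hivep3, Cbfa2t3, Arpp21, Btg2, Slc7a11 and Xbp1 are lower in DKO, and Elovl6, Atf6, Pde3b and Smad7 are higher. In all 12 genes the groups do not overlap.

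Large immune gene families were higher in part. The list of guanylate-binding, Schlafen, Ifi200 and Gimap genes had 12 of 22 members higher and 2 lower, with a median of 0.55. Slfn5, of the Schlafen family, was 7.81, 8.18 and 8.27 in WT 1 to 3 and 10.25, 10.08 and 10.54 in DKO 1 to 3 and rose by 2.20 ± 0.20 (adjusted p = 3.02e-05). Slfn1 rose by 1.85 ± 0.25 and Slfn2, known to hold T cells quiescent, rose by 1.33 ± 0.13. Gimap3, a GTPase of lymphocyte survival, was 5.92, 6.22 and 5.78 in WT 1 to 3 and 9.67, 10.09 and 10.23 in DKO 1 to 3 and rose by 4.02 ± 0.26 (adjusted p = 2.48e-06). It lay below the 40th percentile in 2 WT arrays. Gimap4 rose by 2.16 ± 0.38 and Gimap7 rose by 1.81 ± 0.13. Those higher came to 7 with WT 1 left out. Among the 60 largest rises were Samhd1, which degrades deoxynucleotides and rose by 2.62, Sting1, the adaptor of cytosolic DNA sensing, at 1.79, and the Ifi200 genes Ifi206 at 2.63, Ifi214 at 1.94 and Ifi208 at 1.75. Samhd1 and Ifi206 lay below the 40th percentile in 2 WT arrays, Ifi214 in all 3 and Ifi208 in 1. Ifi214 passed the filter only through DKO. Ifi200 genes are near-copies of each other, so their probe sets may share signal.

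Classical interferon-stimulated genes gave a less even picture. On that list 8 of 38 were higher and 0 lower, with a median of 0.32. Array medians were -0.06, 0.12 and -0.05 in WT 1 to 3 and 0.58, 0.06 and 0.18 in DKO 1 to 3, so DKO 1 stood above the rest and DKO 2 lay below WT 2. The count was 3, 2, 4 and 5 with WT 1, WT 3, DKO 1 and DKO 3 left out in turn. Ddx58, the RNA sensor RIG-I, rose by 0.59 ± 0.11 (adjusted p = 0.00452). What set DKO 1 apart was not tested.

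Cytotoxic genes and antigen presentation changed in part. Of 38 NK receptor and cytotoxic genes on the array only 20 were tested, and the rest, Ncr1 among them, stayed below the filter. Of the 20 tested, 8 were higher and 1 lower. Nkg7, a granule protein, rose by 1.89 ± 0.25 (adjusted p = 0.000396), and Ctsw, a cathepsin of cytotoxic cells, rose by 1.62 ± 0.20 (adjusted p = 0.000202). Nkg7 had 2 WT arrays below the 40th percentile. Slamf1, a SLAM receptor, fell by 0.85 ± 0.18, and its adaptor Sh2d1a, known as SAP, rose by 0.77 ± 0.11. Rises in this list numbered 5 with DKO 3 left out. In the class I list 4 of 22 were higher and 4 lower. Mr1, which presents vitamin B metabolites to MAIT cells, was 11.04, 11.06 and 10.98 in WT 1 to 3 and 9.30, 9.55 and 9.19 in DKO 1 to 3 and fell by 1.68 ± 0.14 (adjusted p = 1.7e-05). B2m, the light chain of class I, rose by 0.87 ± 0.11, and H2-Q2 fell by 1.18 ± 0.16. The number higher was 2 and 2 with WT 3 and DKO 3 left out in turn.

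Stage genes split by stage. Their lists, like the others, were chosen with earlier results of these data known. The split may partly follow from that choice, so it is not an independent test of stage. DP-stage genes had 15 of 29 lower and 2 higher, with a median of -0.37. The lowest of them was Plxnd1 at -2.88. The highest, St3gal1 at 1.62, is the gene named above as known to rise when DP cells mature. Mature single-positive genes had 17 of 26 higher and 4 lower, with a median of 0.80. Genes that cut and rejoin receptor loci had 6 of 14 lower and 1 higher. Among those lower was Lig4, the ligase of end joining, which fell by 1.65 ± 0.12 (adjusted p = 4.87e-06). Of the Bcl-2 family and caspases 6 of 32 were lower and 1 higher. Bmf, which promotes cell death, fell by 1.79 ± 0.22 (adjusted p = 0.000214), and Bcl2l1, the gene of Bcl-xL, which keeps DP cells alive, fell by 1.61 ± 0.11 (adjusted p = 3.3e-06). The number lower in the family was 3 with DKO 2 left out.

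Some of the 60 largest falls are known from other tissues. Spo11, the enzyme that cuts DNA in meiosis, was 10.08, 10.31 and 10.49 in WT 1 to 3 and 8.37, 8.67 and 8.19 in DKO 1 to 3 and fell by 1.88 ± 0.21 (adjusted p = 0.000128). Mns1, a structural protein of meiotic cells and sperm tails, fell by 1.41 ± 0.18. Cfap74, a protein of cilia and flagella, fell by 1.41 ± 0.13, and Wdr78, of the dynein arms that move cilia, fell by 1.40 ± 0.23. Iftap, named for its link to intraflagellar transport, was 10.19, 9.45 and 10.15 in WT 1 to 3 and 7.89, 7.22 and 6.40 in DKO 1 to 3 and fell by 2.76 ± 0.31 (adjusted p = 0.000109). Iftap overlaps Rag2 on chromosome 2 in the RefSeq annotation and lies next to Rag1, so its signal is not independent of theirs. All 5 genes were measured above the 40th percentile in every WT array. These 5 were picked out after their values were seen, and the group was not tested.

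Promoters of changed genes were searched for E boxes, the sites E proteins bind, and a few are shown with the letters marked. Letters searched were CAGCTG, which reads the same on both strands, and CAGGTG with its reverse complement CACCTG, in windows of 300 bases from RefSeq (GRCm38.p6) that run from 250 bases before the start to 50 after it. Of the genes tested, 10417 had at least 1 window. The windows shown belong to those genes among the 60 largest rises or falls that have a single window with 2 or more of these letters, and capitals mark the letters. Slfn1 (chr11:83116570-83116869, plus strand) and Il17rb (chr14:30008847-30009146, minus strand) rose, and Cd5 (chr19:10738925-10739224, minus strand), Rag1 (chr2:101649483-101649782, minus strand) and Dgke (chr11:89060699-89060998, minus strand) fell.
Slfn1: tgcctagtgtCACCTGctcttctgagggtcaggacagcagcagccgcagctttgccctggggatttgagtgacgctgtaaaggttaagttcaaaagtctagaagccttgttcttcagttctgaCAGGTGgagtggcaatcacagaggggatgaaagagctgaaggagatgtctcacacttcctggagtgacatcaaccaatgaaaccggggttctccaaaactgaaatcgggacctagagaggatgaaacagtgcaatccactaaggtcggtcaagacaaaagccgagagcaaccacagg
Il17rb: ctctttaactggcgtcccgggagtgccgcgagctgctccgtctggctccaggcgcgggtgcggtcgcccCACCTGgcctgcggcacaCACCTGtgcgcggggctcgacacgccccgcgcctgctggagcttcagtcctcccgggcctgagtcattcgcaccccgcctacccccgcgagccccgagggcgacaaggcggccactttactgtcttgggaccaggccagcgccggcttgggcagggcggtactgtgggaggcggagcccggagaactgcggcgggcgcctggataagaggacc
Cd5: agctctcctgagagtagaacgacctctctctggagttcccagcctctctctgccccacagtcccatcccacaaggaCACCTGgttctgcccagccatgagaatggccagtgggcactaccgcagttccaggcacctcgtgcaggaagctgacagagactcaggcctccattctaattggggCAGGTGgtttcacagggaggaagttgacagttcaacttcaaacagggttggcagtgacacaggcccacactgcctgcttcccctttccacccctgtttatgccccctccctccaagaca
Rag1: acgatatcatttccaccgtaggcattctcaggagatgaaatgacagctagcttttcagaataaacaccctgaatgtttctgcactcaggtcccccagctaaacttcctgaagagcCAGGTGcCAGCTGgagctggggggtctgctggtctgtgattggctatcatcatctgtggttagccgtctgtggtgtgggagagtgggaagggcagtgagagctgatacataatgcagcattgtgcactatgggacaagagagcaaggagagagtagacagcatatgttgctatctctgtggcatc
Dgke: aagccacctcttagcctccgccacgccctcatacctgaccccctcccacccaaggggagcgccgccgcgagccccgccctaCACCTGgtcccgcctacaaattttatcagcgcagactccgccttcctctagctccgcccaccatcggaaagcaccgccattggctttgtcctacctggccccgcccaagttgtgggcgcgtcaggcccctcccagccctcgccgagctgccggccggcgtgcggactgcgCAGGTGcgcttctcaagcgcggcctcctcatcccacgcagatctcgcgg
Of all 32851 windows in the table, 32.9% held at least 1 of the 3 hexamers, against 31.9% of 13111 windows of genes tested. The share was 37.6% of 781 windows of genes lower in DKO and 30.4% of 1109 windows of genes higher. For changes of 2-fold or more it was 35.7% of 154 windows of 100 lower genes and 39.3% of 150 windows of 114 higher genes, so the order of the 2 directions turned. A gene can have several windows, some of them overlapping, so windows are not independent. The shares were not compared by a test. A match is only a run of letters, and binding was not measured.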

How the data were processed

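Linear intensity values of 34760 probe sets of an Affymetrix array were deposited by the authors. They come from RMA, per the submitters' processing notes, whose version is not given in the sources used here. RMA corrects background, equalises the arrays and summarises the probes, so a shift common to all genes is removed. The values were turned to log2 with no constant added. Of the probe sets, 21640 carried 1 gene symbol, 1321 several and 11799 none, and only the first kind was used. Each of 19937 genes was taken from its probe set with the highest mean, and tested if that reached the array's 40th percentile in at least 2 of 10 arrays. Probe sets read transcripts without separating overlapping genes.

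With limma 3.58.1 (R 4.3.3), all 10 arrays entered a linear model that gives each genotype its mean (6 residual and 5.68 prior degrees of freedom), and p-values for DKO minus WT were adjusted by Benjamini-Hochberg over 13138 genes. The steps were tested on simulated data, where nearly all known changes were recovered and the share of false calls in 1 draw was above the rate aimed at, and above the first limit set for it, which was then widened. The number of arrays limits the precision. Errors are SE unless named SD. Gene members, 56 program lists and 10 marker lists were chosen with earlier results of these data known, and genes on several lists were counted in each. The counts of 1 list are not reported here. Genes named were drawn from 431 that a rule gives. The rule takes Tcf3, Tcf12, up to 6 members per list with the largest difference, members of lists of 12 or fewer, and the 60 largest rises and falls. Only a part of these 431 is named, and nearly all of that part was called, so large members that were not called are mostly left out. Cxcr4, Ifngr1, Il17re, Il21r, Il4ra, Socs1, Socs3, Nr6a1, Rps3a1, Mir128-2, Mir181a-2, Mir342 and the small nucleolar RNAs are named outside that rule, picked once their values were known. Alternatives were other filters, scalings, weights and models (statmod 1.5.0 for robust moderation), a replicate block, a sex term, a 2-fold minimum, and each array left out in turn.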

Additional observations from a re-analysis of the deposited data

How the results depend on the processing

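Over 21 refits of the DKO and WT comparison, the number of genes called ran from 991 to 3655, against 1786. Leaving out 1 array gave 991 to 1910 calls, 543 to 1254 of them higher and 448 to 705 lower. Array weights gave 3655 (2217 higher, 1438 lower), and a minimum of 2-fold gave 276 (144 higher, 132 lower). A sex term gave 1413 and renewed quantile normalization 1910, with 52.7% of calls higher against 60.2%. With the replicate number as a block (replicate block) there were 2321 calls, 1432 higher and 889 lower. Deviations of same-numbered WT and DKO arrays correlated at 0.40, 0.01 and 0.13. Pairs of unlike number ran from -0.32 (WT 1 with DKO 3) to 0.24 (WT 2 with DKO 3). Whether arrays of the same number shared a batch was not tested. No alternative moved the median over all genes by 0.1 or more. Of the genes named, Mir181a-2, Foxm1 and Kcnma1 lost their call in some alternatives. The cause of these changes was not tested.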
